A study of Rattus norvegicus with 3 samples.

Results

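The 10 genes described here are the members of the Bcl2 family that lie outside the best known p53 targets, namely Bcl2, Bcl2l1, Mcl1, Bcl2l11, Bid, Bad, Bmf, Hrk, Bak1 and Bok. They were chosen by gene symbol, and all 10 were found among the 18425 genes of the deposited table, each with a mean of at least 10 reads. RNA came from whole retinas of wild-type Sprague Dawley rat pups, which received an intravitreal injection of 1 µl at P1 and were collected at P4. The control libraries were citrate buffer, the solvent of STZ, and saline, and the third library was STZ (streptozotocin, an alkylating glucosamine-nitrosourea) at 10 µg. For its intravitreal injections at P1 the paper describes STZ in right eyes and buffer in the left eyes of those pups. Whether the sequenced retinas were such fellow eyes is not given. Each condition had 1 library, and the number of animals or retinas behind a library is not given in the sources used here. No difference given here therefore has a replicate check or a p-value.

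Proteins of the Bcl2 family decide whether the outer membrane of the mitochondrion is opened, which releases cytochrome c and starts the intrinsic pathway of apoptosis. Guardians (Bcl2, Bcl2l1 and Mcl1) hold the membrane closed, effectors (Bak1 and Bok, with Bax) form the pores, and BH3-only proteins (Bcl2l11, Bid, Bad, Bmf and Hrk) carry stress signals to both. In the developing retina this pathway removes surplus neurons and progenitors, and it is also the route by which damaged DNA leads to cell death.

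Of the 10 genes, only Bcl2l11 passed the fold thresholds used for this series, and it was lower in STZ than in either control. The fold was (FPKM + 1)/(FPKM + 1), where FPKM is a level per transcript length and library size. A gene was called higher above a log2 fold of 0.623, and lower below a fold of 0.65, the values of the study's methods. Beyond counting error but within the thresholds, Bcl2l1 was higher and Mcl1 and Bid were lower in STZ than in either control, Bok was higher than in buffer and Bmf lower than in saline. Bcl2, Bad, Hrk and Bak1 differed by less than counting error. Between STZ and buffer, 1 of the 10 genes was called, beside 3.29% of all genes in the table. Between STZ and saline it was 1 of 10 beside 3.78%, and between the 2 controls 0 of 10 beside 1.43%. The median log2 fold of the 10 genes was -0.033 for STZ relative to buffer, 0.020 for STZ relative to saline, and 0.065 for saline relative to buffer. Over the 14885 genes with a mean of at least 10 reads these medians were 0.028, 0.013 and 0.016.

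The libraries were of nearly equal depth, between 21977843 and 22031249 reads. Markers of the retina were present in all 3 libraries, and none of the markers searched was at 0 in all of them. The summed level of 9 progenitor markers was 3202 CPM (reads scaled to the library total) in buffer, 3254 in saline but 2338 in STZ, and 8 of the 9 were lowest in STZ. The 7 photoreceptor markers summed to 2192, 2070 and 2322 CPM, and the 7 ganglion cell markers to 298, 279 and 331 CPM. The 10 microglia markers summed to 61.4, 77.4 and 175 CPM, the 10 lens markers to 12.6, 31.6 and 151 CPM, and the 9 markers of pigment and ciliary epithelium to 435, 736 and 370 CPM. The 6 endothelial markers (644, 704 and 480 CPM) and the 4 blood markers (59.6, 81.3 and 42.1 CPM) were each lowest in STZ. The 7 amacrine and horizontal cell markers summed to 768, 732 and 917 CPM, with 4 highest and 2 lowest in STZ. Of the 7 photoreceptor markers, 5 were highest and 2 lowest in STZ. All 7 ganglion cell and all 10 microglia markers were highest in STZ, as were 8 of the 10 lens markers. Of the 9 pigment and ciliary epithelium markers, 0 were highest and 4 lowest in STZ. In a whole retina, fewer cells of a type and less RNA per cell cannot be told apart.

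The RefSeq promoter windows of assembly GRCr8 are shown for Bcl2l11, which was called lower in STZ, and for Bad, which was not called. These genes were the members in which the same short element was found. Each run is the 250 bases upstream of the annotated start, read along the strand of the gene. The capitals mark the core of the FOXO element, GTAAACA or its reverse complement TGTTTAC. FOXO factors are known activators of Bcl2l11 when growth factor signaling is low. The Bcl2l11 run is chr3:135819792-135820041 on the plus strand, and the Bad run is chr1:213562864-213563113 on the plus strand.
Bcl2l11: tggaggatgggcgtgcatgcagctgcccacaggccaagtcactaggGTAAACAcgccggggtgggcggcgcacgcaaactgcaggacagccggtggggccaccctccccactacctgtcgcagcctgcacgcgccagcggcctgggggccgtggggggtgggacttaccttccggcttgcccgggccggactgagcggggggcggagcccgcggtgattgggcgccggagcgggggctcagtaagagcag
Bad: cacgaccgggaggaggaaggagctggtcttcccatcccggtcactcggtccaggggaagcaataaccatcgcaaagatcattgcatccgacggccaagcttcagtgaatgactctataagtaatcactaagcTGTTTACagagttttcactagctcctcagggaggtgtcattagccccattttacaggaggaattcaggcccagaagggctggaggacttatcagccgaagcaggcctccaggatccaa
A window was found for 9 of the 10 genes, all but Bok, and Bcl2l1 had more than 1. The element begins 204 bases upstream of the start in Bcl2l11 and 118 bases upstream in Bad, where it lies on the other strand. It is present in 3.21% of all 33469 windows of the same length. The AP-1 core, TGACTCA or TGAGTCA, was searched in the same way, was found in 0 of the 9 genes and is present in 4.05% of all windows. These matches describe the letters only, and the reads themselves were mapped to another assembly.

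**Figure D1:**
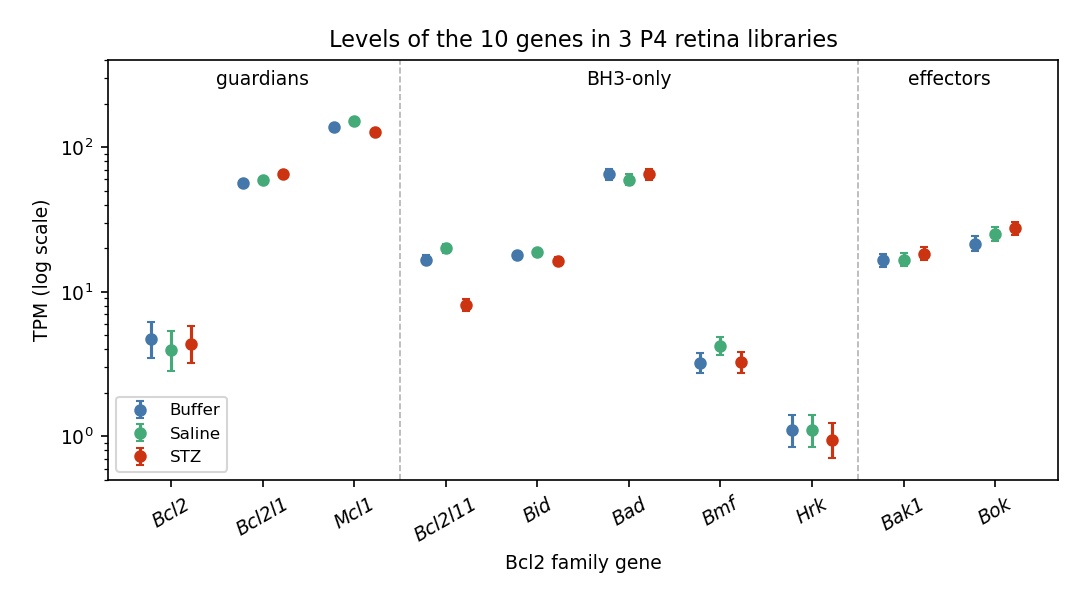
Level of each of the 10 genes in TPM (a per-length unit with the same total in each library, log axis) in the buffer, saline and STZ libraries, with the genes grouped by role. Points are single libraries and bars are exact Poisson 95% intervals of the reads. Mcl1 is highest and Hrk lowest in each library, and Bcl2l11 is the gene whose STZ point, 8.14 TPM, lies well apart from its control points of 16.7 and 20.0 TPM.

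The guardian genes differed in level by more than an order of magnitude. On the TPM scale, Mcl1, which encodes a guardian with a short-lived protein, was at 138, 151 and 127 in buffer, saline and STZ. It was the highest of the 10 genes in all 3 libraries, above 92.7% of all genes in buffer. Bcl2l1, which encodes Bcl-xL, was at 56.6, 58.8 and 65.7 TPM. Bcl2, the founding member, was at 4.69, 3.94 and 4.39 TPM, from only 50, 42 and 47 reads. The level of Mcl1 was thus 29.4 times that of Bcl2 in buffer, and 38.3 and 28.9 times in saline and STZ.

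Bcl2l1 had 1680 reads in buffer, 1751 in saline and 1952 in STZ. Its count ratio, the ratio of its shares of the library totals, was 1.16 in STZ against buffer (exact 95% counting interval 1.09 to 1.24) and 1.11 against saline (1.04 to 1.19). The STZ library was the highest of the 3, and saline and buffer differed by less than counting error (1.04, 0.975 to 1.12). Mcl1 had 1782, 1956 and 1646 reads, with count ratios of 0.922 in STZ against buffer (0.862 to 0.987) and 0.840 against saline (0.786 to 0.897). For Mcl1 the control libraries also differed from each other by more than counting error, with a ratio of 1.1 (1.03 to 1.17) in saline against buffer. The difference between STZ and buffer was thus of the size seen between the controls. The level of Mcl1 relative to Bcl2l1 on the TPM scale was 2.44 and 2.57 in the buffer and saline libraries and 1.93 in STZ. For Bcl2 the count ratio of STZ against buffer was 0.938, but its interval ran from 0.617 to 1.43, so a change within these bounds was not detectable at this depth.

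Among the BH3-only genes, Bcl2l11 stood apart. It encodes Bim, which binds every guardian, can activate the effectors directly and is a main trigger of developmental death in neurons. Bcl2l11 had 684 reads in buffer, 735 in saline and 439 in STZ. Its FPKM was 8.54, 10.3 and 4.17 and its TPM 16.7, 20.0 and 8.14 in the same order. The STZ library was lowest on every scale, and saline was above buffer. The fold was 0.542 in STZ against buffer and 0.459 against saline. Of the 14885 genes with a mean of at least 10 reads, 0.396% had a lower fold against buffer and 0.369% a lower fold against saline. Of all genes in the table, 1.04% were called lower than in buffer and 1.75% lower than in saline. The ratio of reads was less far from 1, at 0.641 against buffer (0.567 to 0.723) and 0.596 against saline (0.528 to 0.671). In saline against buffer the fold was 1.18 and the count ratio 1.08 (0.968 to 1.2). The progenitor markers were also lowest in STZ, and their part in the fall of Bcl2l11 was not tested.

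The call of Bcl2l11 against buffer depended on the unit. Computed on CPM + 1 in place of FPKM + 1 the fold was 0.652, just short of the threshold, while against saline it was 0.608 and still passed. The deposited FPKM and the reads of a gene together imply a transcript length, the reads divided by the product of FPKM and library total, and for most genes this length was the same in each library. For Bcl2l11 it was 3642 bases in buffer and 3260 in saline but 4778 in STZ. The ratio of STZ to buffer was 1.31, where the 5th and 95th percentiles of the 12539 genes with an FPKM of at least 1 in all libraries were 0.979 and 1.04, and only 17 of these genes lay farther from 1. The ratio of STZ to saline was 1.47, and 6 genes lay farther from 1. With the length of the buffer library used throughout, the fold of Bcl2l11 became 0.678 against buffer, which is not called, and 0.635 against saline, which is. The fall in FPKM was thus the product of a fall in reads and a shift in implied length. Neither the lengths nor the transcripts behind a gene's FPKM are given in the sources used here, and this calculation was chosen after the values were seen.

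Bmf, a BH3-only gene whose protein is held by a dynein light chain and released when cells detach, showed the other large shift in implied length. The length was 4381 bases in buffer, 4049 in saline and 3642 in STZ, a ratio of 0.831 in STZ against buffer, and 50 genes lay farther from 1. Bmf had 158, 194 and 134 reads, so the STZ library was lowest, yet its FPKM of 1.64, 2.18 and 1.67 put STZ and buffer level. The fold against buffer was 1.01 and the count ratio 0.847 (0.668 to 1.07). Against saline the fold was 0.840 and the count ratio 0.689 (0.549 to 0.863), so only the reads of STZ and saline differed by more than counting error. Of the 9 genes of the family with an FPKM of at least 1 in all libraries, Bcl2l11 and Bmf were the 2 whose implied length differed by more than 1.1 times between STZ and buffer, beside 1.81% of all such genes. Between STZ and saline it was also 2 of 9, beside 1.79%, and between saline and buffer 1 of 9, beside 1.34%. The members other than Bcl2l11 and Bmf had ratios of STZ to buffer between 0.961 and 1.001.

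**Figure D2:**
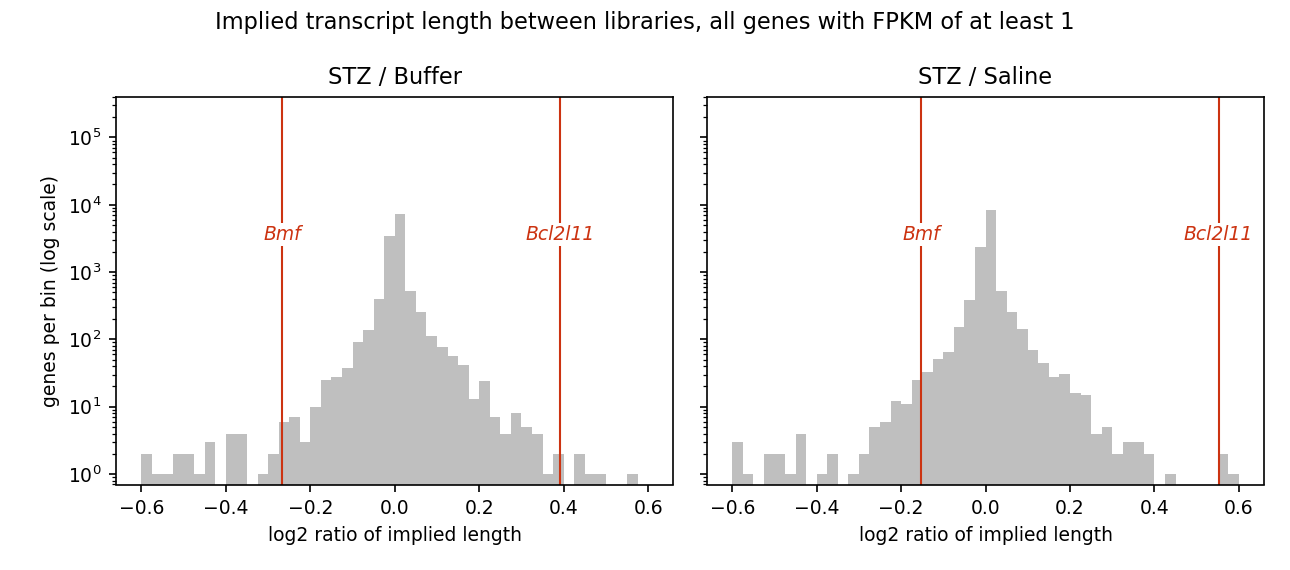
Number of genes (log axis) by the log2 ratio of implied transcript length between STZ and buffer (left) and between STZ and saline (right), over the 12539 genes with an FPKM of at least 1 in all libraries, with genes beyond the axis counted in the end bins. Lines mark Bcl2l11 and Bmf, which lie in the right and left tails while most genes lie at 0.

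Bid, which encodes the BH3-only protein that caspase-8 cleaves to connect death receptors with mitochondria, had 1096 reads in buffer, 1156 in saline and 1004 in STZ. Its count ratio was 0.915 in STZ against buffer (0.839 to 0.997) and 0.866 against saline (0.795 to 0.944), so STZ was lowest by a small margin. Bad, whose protein is kept inactive by 14-3-3 proteins while survival kinases phosphorylate it, was covered by 546, 505 and 539 reads, and its fold against buffer was 1.00. Hrk, a BH3-only gene of neurons that is known to be induced when trophic factors are withdrawn, was the lowest of the family at 1.1, 1.1 and 0.95 TPM. It had 60, 60 and 52 reads, and its count ratio of 0.865 against buffer had an interval of 0.585 to 1.28. Bcl2l11 and Bid were close in level in the controls. On the TPM scale Bcl2l11 was 0.937 times Bid in buffer and 1.07 times in saline, but 0.5 times in STZ. These ratios include the shift in implied length of Bcl2l11, so they overstate the fall in its reads.

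The effector genes lay slightly above both controls in STZ. Bok, which encodes a Bax-like protein found largely at the endoplasmic reticulum, had 293 reads in buffer, 330 in saline and 362 in STZ, and 21.5, 25.1 and 27.6 TPM. Its fold of 1.26 against buffer was the largest of the 10 genes and was still short of a call. The count ratio of Bok was 1.23 in STZ against buffer (1.05 to 1.44) and 1.09 against saline (0.940 to 1.27), so only the difference from buffer was larger than counting error. Bak1, which encodes the effector that resides on mitochondria, had 356, 351 and 386 reads, with a ratio of 1.08 against buffer (0.935 to 1.25). Its difference from either control was within counting error.

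By the counting interval alone, 5 of the 10 genes differed between STZ and buffer, with Bcl2l1 and Bok higher and Bcl2l11, Mcl1 and Bid lower. This share is close to that of all genes with a mean of at least 10 reads, of which 45.0% had an interval that excluded 1, 26.2% on the higher and 18.8% on the lower side. Against saline the number was also 5 of 10, beside 50.4% (26.9% higher and 23.5% lower), with Bcl2l1 higher and Bcl2l11, Mcl1, Bid and Bmf lower. In saline against buffer it was 1 of 10, Mcl1, which was higher, beside 27.8% (15.9% higher). These intervals cover counting error only and compare libraries, not conditions, because the libraries carried no molecular identifiers and the spread between animals is not in the counts.

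**Figure D3:**
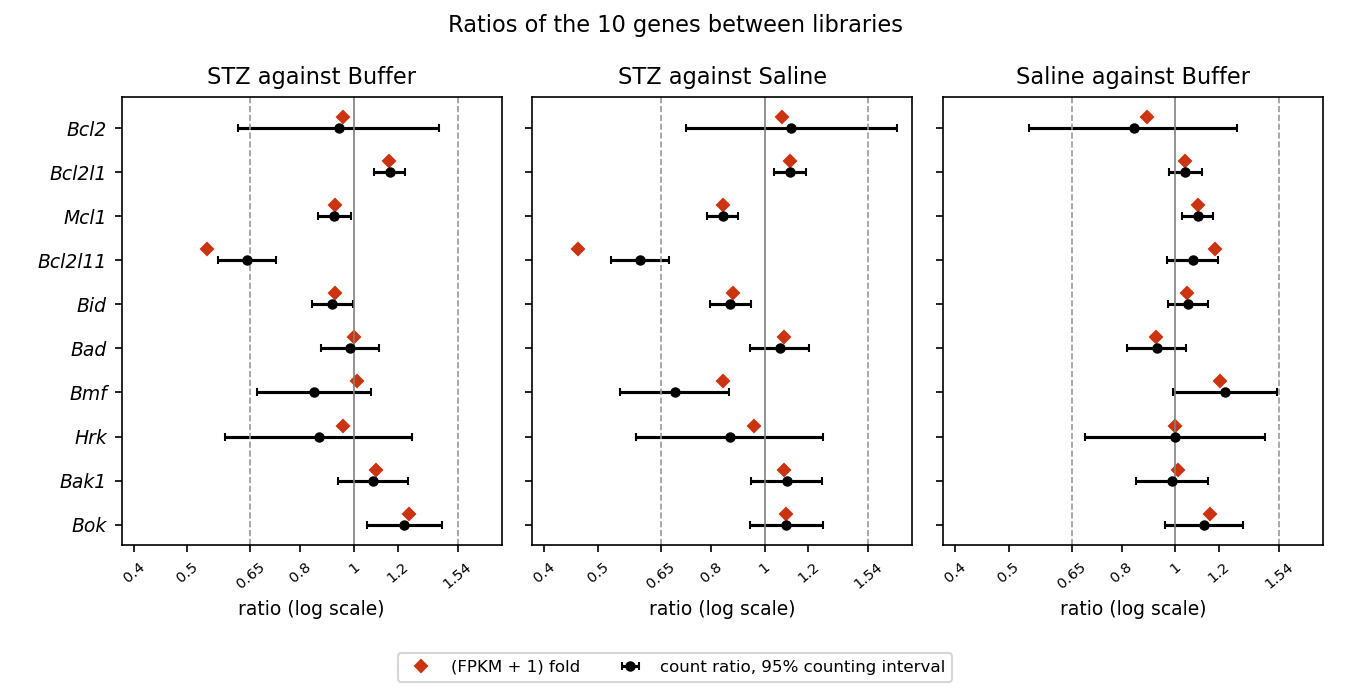
Ratio of each of the 10 genes between libraries (log axis), as the count ratio with its exact 95% counting interval (black) and as the (FPKM + 1) fold (red), in 1 panel for each pair of libraries. Dashed lines mark the thresholds for a call, and Bcl2l11 is the gene whose fold lies below 0.65, at 0.542 against buffer and 0.459 against saline.

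In the order of levels, Mcl1 came before Bad and Bcl2l1, followed by Bok, then Bid, Bcl2l11 and Bak1, and last Bcl2, Bmf and Hrk. In buffer the Poisson intervals of Bid, Bcl2l11 and Bak1 overlapped from neighbour to neighbour, as did those of Bcl2 and Bmf. Bad and Bcl2l1 overlapped in saline and in STZ but not in buffer. Bcl2l11 ranked 6 of 10 in buffer, 5 in saline but 7 in STZ, while Bak1 ranked 7 in both controls but 5 in STZ. In STZ the intervals of Bak1 and Bid overlapped. The interval of Bcl2l11 in STZ, 7.40 to 8.94 TPM, overlapped that of no other member. The ranks of Bcl2l11 and this interval rest on TPM, which includes its shift in implied length.

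Summed over roles on the TPM scale, the balance among the members described here was similar in the 3 libraries. The guardians summed to 199, 214 and 197 TPM in the order buffer, saline, STZ. The BH3-only genes summed to 104, 104 and 93.4 TPM, and the effectors to 38.1, 41.8 and 45.9 TPM. Guardians made up 58.4%, 59.5% and 58.6% of the total of these members, BH3-only genes 30.4%, 28.9% and 27.8%, and effectors 11.2%, 11.6% and 13.7%. These sums leave out other genes of the family, so they do not give the balance of the whole family. The effector Bax, left out, was at 126, 125 and 156 TPM, above the effector sum in each library. The guardian Bcl2l2 was at 64.7, 63.1 and 66.4 TPM, and the BH3-only gene Bbc3 at 8.37, 9.93 and 17.9 TPM. Shares with these genes included were not calculated. The sum of guardians over the sum of BH3-only and effector genes was 1.40, 1.47 and 1.41. Mcl1 and Bad carried most of these sums, and without the most abundant gene of each role the same ratio was 1.11, 1.03 and 1.49, highest in STZ. Bcl2l11 alone equalled 8.39% of the guardian sum in buffer, 9.36% in saline and 4.13% in STZ, values that include its shift in implied length.

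**Figure D4:**
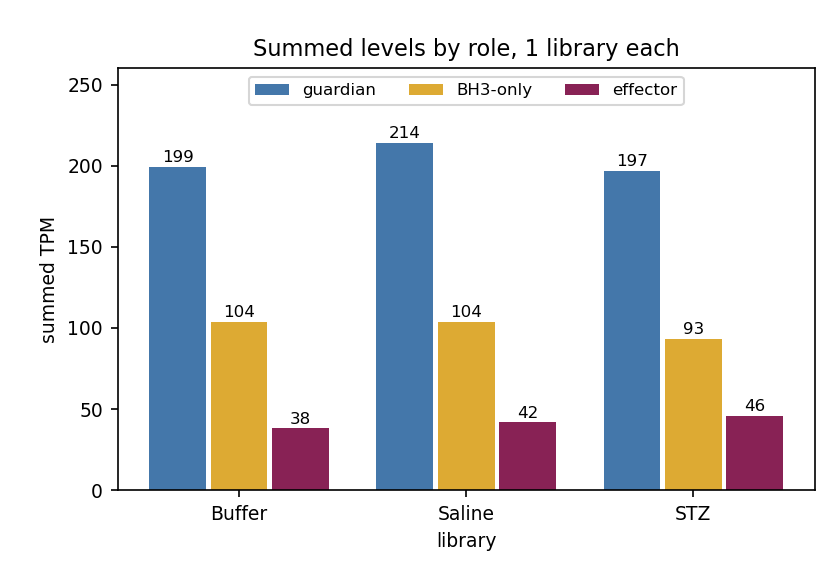
Summed TPM of the guardian, BH3-only and effector members in the buffer, saline and STZ libraries, 1 library each and without error bars. Other genes of the family, such as Bax, are not in the sums. The guardian bars stand at 199, 214 and 197, the BH3-only bars at 104, 104 and 93, and the effector bars at 38, 42 and 46.

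The p53-linked relatives of these genes were higher in STZ. The reads of Bax, the effector that p53 is known to induce, numbered 850 in buffer, 848 in saline and 1057 in STZ, a fold of 1.24 against each control that is short of a call. Bbc3, which encodes the BH3-only protein Puma, had 106, 126 and 227 reads. Pmaip1, which encodes the BH3-only protein Noxa, had 2, 5 and 26 reads and a fold of 2.38 against buffer. Its count ratio against buffer was 13, with a wide counting interval of 3.25 to 113. The implied length of Pmaip1 also shifted, at 1516, 506 and 776 bases, and its fold includes this shift. These lengths rest on few reads and a low FPKM. A list of p53 targets of cell death had 11 matched genes. Of these, 3 were called higher in STZ than in buffer, beside 2.25% of all genes, and 0 lower, beside 1.04%. By the counting interval against buffer, 8 of the 10 with a mean of at least 10 reads were higher and 2 lower. Of all genes with that mean, 26.2% were higher and 18.8% lower. The lower genes of the list were Siva1, with 742, 715 and 560 reads, and Tnfrsf10b, with 25, 23 and 8 reads. Over the 10 with a mean of at least 10 reads the median log2 fold was 0.38, against -0.033 for the 10 members. Pmaip1 and Fas (3, 5 and 28 reads) reach that mean only through the STZ library. The minimum thus favours genes that are high in STZ, and this median and the number higher by the counting interval are affected by it. Besides Bbc3 and Pmaip1, the called gene of that list was Aen, an apoptosis-enhancing nuclease, with 917, 1148 and 1771 reads. Relative to saline, 2 of the 11 were called higher, beside 2.04% of all genes.

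Of the other genes with Bcl2 homology or named for binding the family, 16 of the 17 listed were matched and 13 had a mean of at least 10 reads. Relative to buffer 3 of the 16 were called higher, beside 2.25% of all genes, and 0 lower, beside 1.04%. The higher genes were Bbc3, Pmaip1 and Bcl2a1. Bbc3 and Pmaip1 were also counted among the p53 targets above. Pmaip1 and Bcl2a1 had fewer than 10 reads in each control and reach the minimum mean only through the STZ library. Bcl2a1, a guardian of blood and immune cells, had 3, 9 and 23 reads, a fold of 2.5 and a count ratio of 7.65 (2.31 to 39.8). All 10 microglia markers were highest in STZ as well, and their part in this rise was not tested. The median log2 fold of the 13 genes was -0.13 against buffer. Bcl2l2, a guardian expressed in neurons, had 2412, 2370 and 2494 reads and a fold of 1.03. Relative to saline 3 of the 16 were called higher, beside 2.04% of all genes, and 1 lower, beside 1.75%. The lower gene was Bcl2l15 with 35, 66 and 25 reads.

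Of the caspases, the proteases that act after the mitochondrial step, 9 were matched. Of these, 2 were called higher in STZ than in buffer, beside 2.25% of all genes, and 0 lower, beside 1.04%. They were Casp1, a caspase of inflammation, with 8, 9 and 28 reads, and Casp6, an executioner caspase. The estimated counts of Casp6 are fractional, at 6.59 in buffer, 32.8 in saline but 159 in STZ, and its fold was 5.2 against buffer and 3.02 against saline. The controls also differed by a call for Casp6, with a fold of 1.72 in saline against buffer. The summed level of the 10 lens markers rose in the same order, at 12.6, 31.6 and 151 CPM in buffer, saline and STZ. Of these markers, 8 were highest in STZ. The part of the lens markers in the rise of Casp6 was not tested. Among 19 genes of the mitochondrial step itself, such as the Vdac channels, Apaf1 and Xiap, 0 passed the thresholds against either control. Of all genes, 3.29% passed against buffer and 3.78% against saline. By the counting interval against buffer, 10 of the 18 with a mean of at least 10 reads were higher and 2 lower. Of all genes with that mean, 26.2% were higher and 18.8% lower. The folds of these 18 genes in STZ against buffer lay between 0.834 and 1.41. The highest was that of Cycs, which encodes cytochrome c, with 1793, 1645 and 2549 reads as estimated by the authors, and its log2 fold against saline was 0.619, just short of a call.

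Of 26 matched genes known to regulate the members, 1 was called higher in STZ than in buffer, a share near the 2.25% of all genes, and 0 lower, beside 1.04%. Against saline 0 passed, beside 3.78%. The called gene was Stat3, a transcription factor that can induce Bcl2l1 and Mcl1, with 1730, 1983 and 2731 reads and a fold of 1.55, only just past the threshold. Foxo3 and Foxo1, factors that can activate Bcl2l11, had 1915, 1774 and 1689 reads and 167, 189 and 155 reads. Jun, a further activator of Bcl2l11 and of Hrk, had 2184, 1677 and 1693 reads, so that its low libraries were both saline and STZ. The dynein light chains that hold Bim and Bmf, Dynll1 and Dynll2, had folds of 1.03 and 1.05 against buffer.

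The genes whose reads came nearest to the pattern of Bcl2l11, by the distance between log2 count ratios of saline and of STZ against buffer, were Atad2, Wwtr1 and LOC100912642, at distances of 0.0058, 0.025 and 0.027. Atad2, which encodes a bromodomain ATPase of chromatin, had 1812, 1941 and 1160 reads, and Wwtr1, which encodes the Hippo pathway coactivator Taz, had 301, 318 and 194 reads. In all, 50 of 10158 genes with whole-number counts and a mean of at least 100 reads lay within a distance of 0.1. Only 3 libraries enter this measure, which uses reads and so leaves out the shift in implied length.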

How the data were processed

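The authors extracted total RNA from P4 retinas, made TruSeq libraries, trimmed the reads and mapped them with TopHat2 to the rat genome, rn6 by the submitters' processing notes. Reads with several locations were discarded, and the annotation is not given in the sources used here. The authors deposited an FPKM, a TPM and an estimated count for each gene and library. The deposited FPKM equals the deposited estimated count divided by a length and the library total. Between 12.9% and 13.2% of the estimated counts are fractional and were rounded for intervals, but those of the 10 members are all whole. The series table and the sample tables were identical in these columns.

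Folds were (FPKM + 1)/(FPKM + 1), with thresholds of 0.623 (log2) and 0.65 (linear) after the study's methods. Count ratios have exact Clopper-Pearson intervals at the 95% level, and levels have exact Poisson intervals. With 1 library per condition no count model was fitted. Other settings tried were thresholds of 2 and 0.5, a pseudocount of 0.1, TMM factors (edgeR 4.0.16) or median-of-ratios factors (DESeq2 1.42.0) in R 4.3.3, a call by the counting interval, TPM or CPM instead of FPKM, a minimum mean of 10 counts, and the mean of both controls. The fixed implied length, and the alternatives for lists other than the members, were added after the data were seen. Members and lists were chosen with earlier results of these data known. Named genes were the 10 members, genes of the other lists past the thresholds in STZ against buffer with a mean of at least 10 counts, Bax, Bbc3 and Pmaip1, and the 3 genes nearest in pattern to a called member. Fas, Tnfrsf10b, Siva1, Bcl2l2, Bcl2l15, Cycs, Foxo1, Foxo3, Jun, Dynll1 and Dynll2 were named after their values were seen. Promoter sequences are from RefSeq for GRCr8. The calculations were tested on simulated data. Python 3.11.15, numpy 2.4.6, pandas 2.3.3, scipy 1.17.1 and matplotlib 3.10.9 were used.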

Additional observations from a re-analysis of the deposited data

How the results depend on the processing

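No paired analysis was possible because each condition had 1 library, so there was also no replicate to leave out. Of the numbers of members called, that of STZ against buffer went from 1 to 0 with CPM in place of FPKM, with the implied length of the buffer library, and with thresholds of 2 and 0.5. With a counting interval that excludes 1 as the rule, the number was 5 for STZ relative to buffer, 5 for STZ relative to saline, and 1 between the controls. Of all genes with a mean of at least 10 reads, 45.0%, 50.4% and 27.8% had such an interval in these pairs. The other 22 recalculated numbers of members called were equal to the main value or within 1.5 times of it. All 22 medians stayed within a band around the main median, as wide as the counting interval of a typical single member. That band is not the counting error of a median of 10 genes, so it is a loose check. The median in STZ against saline changed sign, to -0.021 with a pseudocount of 0.1 and -0.032 with CPM. Of the 190 recalculated folds of single members, 4 moved by more than counting error, all of Bcl2l11. Bmf in STZ against buffer ranged from 0.865 to 1.02.

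Among the regulators, the number called was 0 with TMM factors, DESeq2 size factors, the mean of both controls, or thresholds of 2 and 0.5. Among the p53 targets of cell death it was 5 with a pseudocount of 0.1, TPM or CPM, and 1 with thresholds of 2 and 0.5. The genes added to reach 5 were Fas (higher in STZ) and Tnfrsf10b (lower). Among the caspases the number was 1 with those thresholds. For members and lists alike, the share of all genes called under each of these other units, factors, pseudocounts and thresholds is not given. These numbers therefore have no background to be read against. With counts in place of TPM, the shares of guardian, BH3-only and effector genes were 52.4%, 37.9% and 9.68% in buffer, 52.95%, 37.4% and 9.62% in saline, and 55.6%, 33.0% and 11.4% in STZ. Without the most abundant gene of each role they were 52.5%, 33.3% and 14.2% in buffer, 50.8%, 35.7% and 13.5% in saline, and 59.9%, 24.5% and 15.7% in STZ. These shares differ from the main ones because other genes and lengths weigh in them. Depth limits Bcl2, Hrk and Bmf most.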
